A study of Mus musculus with 6 samples.

Results

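Among kidney cells sorted through a mesenchyme gate, 53 wells carried transcripts typical of parietal epithelial cells. They were 4.79% of the 1106 kept wells of that gate, and the whole series held 2235 kept wells. A well was counted as a member when it held at least 1000 detected genes and 20000 reads on genes, Col1a1 under 300 CPM, and at least 3 of 7 genes (Cldn1, Ankrd1, Osr2, Igfbp2, Wnt16, Pcp4 and Stc2) at 20 CPM or more. CPM is a gene's read count scaled to 1000000 gene reads per well. The members were thus chosen by measured levels of these 8 genes, and the differences between members and other wells are given as a description without a test.

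The study sequenced single cells of digested mouse kidney with Smart-seq2, which reads full-length transcripts from cells sorted singly into plate wells and carries no molecular identifiers. Each of 6 plates mixed wells of 3 mice, an uninjured healthy animal and animals at day 2 and day 10 after unilateral obstruction of the ureter (UUO), in which a blocked ureter causes tubular damage and scarring of the kidney above it. The plate layout tells for every well the gate it came through, mesenchyme or endothelia, with its condition and a number (1 to 4). Wells of the same condition and number were treated as 1 mouse, an assumption that gives 4 mice per condition and 12 in all. Members came from all 12 mice and all 6 plates, and held a median of 345105 gene reads (24454 to 535211) and 4070 detected genes (2466 to 6755). The other kept wells of the gate held medians of 353836 reads and 3459 genes. The mouse strain, age, any transgene and the markers used for sorting are not given in the sources used here, although the count tables hold an eGFP entry. Every condition and gate fills the same columns of each plate, so condition and plate position cannot be told apart.

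Parietal epithelial cells form the flat lining of Bowman's capsule, the cup that surrounds the glomerular capillary tuft and collects the primary filtrate. They arise from the same nephron precursors as podocytes, the filter cells on the other side of that space, and they continue into the proximal tubule at the urinary pole. They are epithelial cells rather than mesenchymal ones, are sealed by claudins, and are known to turn on migration and matrix genes in glomerular disease.

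The 7 genes of the rule chose the members, and their levels elsewhere in the series were low. Cldn1, a tight junction claudin, reached 20 CPM in 47 of the 53 members, Pcp4, a small calmodulin-binding protein, in 42, Ankrd1, a nuclear ankyrin-repeat protein and known target of YAP and TEAD factors, in 37, and Stc2, a secreted glycoprotein, in 36. Osr2, a zinc-finger transcription factor of kidney development, did so in 35 members, Wnt16, a secreted Wnt ligand, in 30, and Igfbp2, a binding protein of insulin-like growth factors, in 27. Mean Wnt16 was 177 CPM in members and 0.102 CPM in the 1053 other kept wells of the gate. Mean Cldn1 was 1009.9 CPM against 10.4 CPM. No well of the endothelia gate held 3 or more of these genes (0 of 1129, which allows a share of up to 0.266%), and none of 12 control wells held any at 20 CPM.

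The members just inside the threshold and the wells just outside it differed in genes the rule did not read. The 6 members with exactly 3 rule genes had a median of 384 CPM of Pax8 and 1011 CPM of Cp, while the 9 wells with 2 rule genes had 82.6 and 34.3 CPM. Another 2 wells met the gene count but held Col1a1 at 334 and 1285 CPM and were left out. The highest Col1a1 level in a member was 67.4 CPM. Most members lay above the limit, with 4 rule genes in 17 wells, 5 in 18, 6 in 6 and all 7 in 6.

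Promoter sequence is shown for Ankrd1 and Wnt16, the 2 genes with the highest ratio of members to the rest of the gate. The sequences are from RefSeq (build GRCm38.p6), run 5′ to 3′ on the strand of the gene and end at the base before the RefSeq start. In the GENCODE annotation of GRCm38, Ankrd1 spans chr19:36111961-36120099 on the minus strand, Wnt16 chr6:22288227-22298522 on the plus strand and Cldn1 chr16:26356642-26371841 on the minus strand. The Ankrd1 window is chr19:36119845-36120094 on the minus strand, and the Wnt16 window is chr6:22287977-22288226 on the plus strand. The Ankrd1 window lies inside the GENCODE span of Ankrd1, since its RefSeq start lies downstream of the GENCODE start at 36120099. Capitals mark the letters GGAATG, the core bound by TEAD factors, which was searched on both strands (GGAATG or CATTCC).
Ankrd1: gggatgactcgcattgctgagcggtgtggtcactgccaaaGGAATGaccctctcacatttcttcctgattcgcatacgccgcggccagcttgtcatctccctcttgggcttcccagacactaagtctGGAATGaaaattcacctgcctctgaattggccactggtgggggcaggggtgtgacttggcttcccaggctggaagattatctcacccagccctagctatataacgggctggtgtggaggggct
Wnt16: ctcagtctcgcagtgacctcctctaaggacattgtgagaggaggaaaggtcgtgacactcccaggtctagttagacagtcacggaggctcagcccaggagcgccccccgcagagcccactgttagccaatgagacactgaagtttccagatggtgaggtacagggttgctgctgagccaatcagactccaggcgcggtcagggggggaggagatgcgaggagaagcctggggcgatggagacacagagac
The Ankrd1 window held this motif at 2 places, which begin 210 and 123 bases upstream of the start, and the Wnt16 window did not hold it. Of 32851 mouse promoter windows of this length, 12.6% held the motif. Entries were found for 6 of the 7 rule genes, and Ankrd1 was the 1 gene among them with a match.

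Of 13 further genes associated with parietal cells, 9 were at least 4-fold higher in members than in the other gate wells and 1 was at least 4-fold lower, with a median log2 ratio of 2.38. Over all 12386 genes at 5 CPM or more in either kind of well, 10.3% were at least 4-fold higher and 9.42% at least 4-fold lower, with a median log2 ratio of 0.15. These ratios come from the wells the rule compared, so nothing is read from the counts beyond their description. Pax8, a transcription factor of nephron epithelium, was detected in 94.3% of members at a mean of 739 CPM, against 6.08% and 14.4 CPM in the other wells. Ncam1, a cell adhesion molecule of the developing nephron, averaged 1100.1 CPM against 39.4 CPM. Cp, the copper-binding ferroxidase ceruloplasmin, was detected in every member at a mean of 2613 CPM, against 139 CPM. In all 12 mice the mean levels of Pax8, Ncam1, Cp and Dkk3, a secreted glycoprotein of the Dickkopf family, were higher in members than in the other gate wells of the same mouse. These genes go with the parietal label, but others of the list do not, and the identity of the wells was not tested. The keratin genes Krt8 and Krt18 were detected in 9.43% and 5.66% of members. Proximal tubule markers shifted too, with a median log2 ratio of 2.145 and 5 of 8 at least 4-fold higher.

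**Figure D1:**
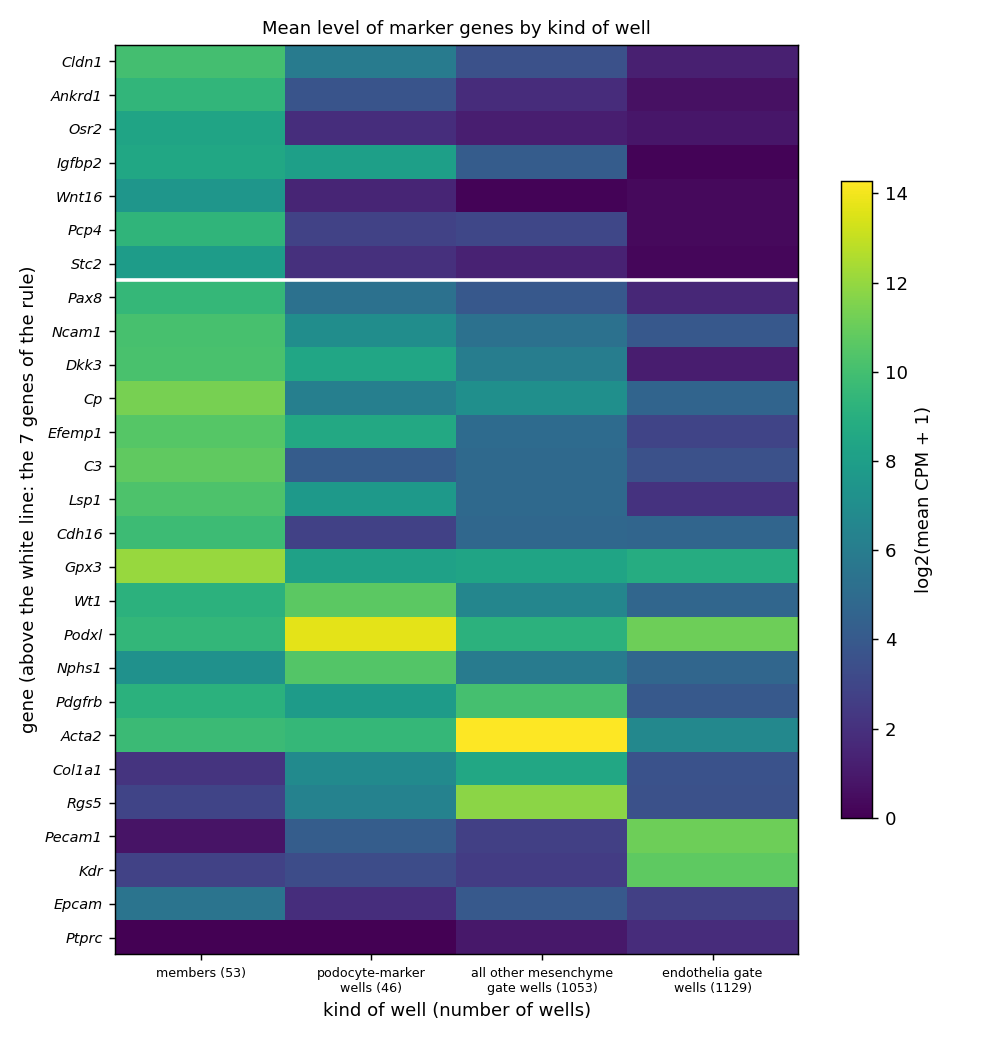
Mean level of 27 marker genes, as log2(mean CPM + 1) by colour, in 53 members, 46 other mesenchyme gate wells with podocyte markers, all 1053 other mesenchyme gate wells (the 46 among them) and 1129 endothelia gate wells. The rule genes above the white line and Pax8, Ncam1 and Cp are bright in the members' column, while Podxl and Nphs1 are brightest in the podocyte-marker wells, Acta2 and Rgs5 in the other mesenchyme gate wells and Pecam1 in the endothelia gate.

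Genes with high ratios outside the rule included a claudin, matrix proteins and a complement protein. Cldn2, the claudin of leaky proximal epithelium, averaged 519.8 CPM in members and 5.52 CPM in the other gate wells. Efemp1, a fibulin of the extracellular matrix, averaged 1459 CPM against 30.4 CPM, and C3 (the central component of complement) 1794 against 28.7 CPM. Lsp1, an actin-binding protein first described in leukocytes, averaged 1236 CPM against 28 CPM, while the leukocyte gene Ptprc had no read in any member. Csf1r, best known as the receptor that macrophages use for Csf1, was detected in 90.6% of members at a mean of 665 CPM, against 9.21% and 18.5 CPM. Other genes near the top of the ratio were Fras1, which links epithelium to its basement membrane, at 201 against 4.03 CPM, Myo5b, a vesicle motor of polarised epithelia, at 272 against 5.53 CPM, and Arhgef28, a guanine nucleotide exchange factor, at 483 against 10.2 CPM.

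Most genes of smooth muscle and pericytes, abundant in the rest of the gate, were low in members, with exceptions. P2rx1, an ATP-gated channel of smooth muscle, averaged 0.475 CPM in members and 677 CPM in the other gate wells, and Sncg, gamma-synuclein, 0.908 against 923 CPM. Rgs5, a pericyte regulator of G-protein signalling, averaged 6.57 CPM against 3488 CPM, and Myh11, smooth muscle myosin, 7.62 against 3702 CPM. Acta2, smooth muscle actin, averaged 862 CPM against 19797 CPM with a median of 61.0 CPM in members, and renin (Ren1) had no read in any of them. Tagln, the actin-binding transgelin, was detected in 92.5% of members at a mean of 1549 CPM against 2695 CPM, and Mylk, myosin light chain kinase, in all 53 at 649 against 2399 CPM. By limits of 20 CPM for Pecam1 or 100 CPM for at least 2 smooth muscle markers, 38 of 53 members and 948 of 1053 other wells counted as a possible mix of cells. Smooth muscle cells pass these limits by their own genes, so in the other wells the count does not measure mixing. The part of mixing in members was not tested. Pdgfrb, a growth factor receptor common to renal mesenchyme, was nevertheless detected in 94.3% of members, at a mean of 547 CPM against 1055 CPM. The eGFP entry averaged 251 CPM in members, 507 CPM in the other gate wells and 12 CPM in the endothelia gate. Both Pdgfrb and eGFP were lower in members than in the other gate wells in 12 of 12 mice.

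Markers of other cell types were set beside these levels as whole lists. Of 6 smooth muscle markers 4 were at least 4-fold lower in members, as were 7 of 8 pericyte and mesangial markers, 4 of 6 fibroblast markers (Col1a1, which the rule used, among the list) and all 3 renin cell markers, and none of these lists had a gene 4-fold higher. Pecam1, which defines endothelium, averaged 0.655 CPM in members and 2237 CPM in the endothelia gate. Among 3 compared immune markers Csf1r alone was 4-fold higher, and Ptprc was at 0. Proximal tubule markers went the other way, with 5 of 8 at least 4-fold higher in members and 0 lower. They summed to 5159 CPM in members and 542 CPM in the others, and most of that sum was Gpx3, a secreted glutathione peroxidase, with 4349 CPM in members and reads in all 53. Slc34a1, the phosphate carrier that defines proximal tubule, was detected in 26.4% of members and 16% of the other wells, with a median of 0 CPM in members. Lrp2, the endocytic receptor megalin of proximal tubule, was detected in 35.8% and 9.78%. Of 8 podocyte markers 1 was 4-fold higher and 2 lower (summed level 2352 CPM in members and 2426 CPM in the others). The others include 46 wells with podocyte markers, in which this list summed to 42526 CPM. A comparison without those wells was not made. Of 5 loop of Henle markers 0 were higher and 2 lower, and of 7 endothelial markers 0 were higher and 2 lower. The part that RNA from other cells has in these levels was not tested.

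Transcription factors of nephron development formed the list with the largest shift outside the marker lists. Of 21 compared, 12 were at least 4-fold higher in members and none was 4-fold lower, with a median log2 ratio of 2.67. Over all genes, 10.3% were 4-fold higher and 9.42% 4-fold lower. The 12 include Pax8, described above, and Osr2, which the rule used. Wt1, needed for nephron formation and kept on in podocytes, averaged 582 CPM against 91.4 CPM. It reached 1631 CPM in the 46 podocyte-marker wells, which are among the other wells. The whole list summed to 2740 CPM in members, 625 CPM in the other wells and 3888 CPM in the podocyte-marker wells. Its summed level was thus not particular to members.

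Of 24 claudins and tight junction genes, 8 were at least 4-fold higher and 3 lower, against 10.3% and 9.42% over all genes. The median log2 ratio was 1.3. Cldn1, which the rule used, is among the 8. The whole list summed to 3013 CPM in members, 810 CPM in the other wells and 2849 CPM in the podocyte-marker wells. Of 15 adherens junction and desmosome genes, 7 were higher and 0 lower. Cdh16, a kidney-specific cadherin, averaged 877 CPM against 26.6 CPM, and Pkp2, a desmosome plakophilin, 196 against 9.12 CPM. Epcam and Cdh1, general epithelial adhesion genes, were each detected in only 3.77% of members. Of 7 compared keratin and filament genes 2 were lower and 0 higher, and vimentin (Vim) averaged 1674 CPM against 1192 CPM.

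Of 26 fibrillar matrix genes, 11 were at least 4-fold lower in members and 1 was higher, with a median log2 ratio of -1.15, in wells that the rule limited to low Col1a1. Of 27 basement membrane genes, 5 were higher and 3 lower, against 10.3% and 9.42% over all genes. Col4a3 and Col4a4, collagen chains of the mature glomerular basement membrane, averaged 725 and 381 CPM in members and 254 and 71.6 CPM in the other wells. The podocyte-marker wells, which are among those other wells, averaged 4643 and 1075 CPM. Dag1, the laminin receptor dystroglycan, averaged 1611 CPM against 315 CPM.

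Signalling lists mixed both directions. Of 15 retinoic acid genes 6 were at least 4-fold higher and 2 lower, among them Aldh1a2, which makes retinoic acid, at 417 against 79.9 CPM. Of 30 Wnt genes 7 were higher and 8 lower, and of 13 genes of the insulin-like growth factor axis 3 were higher and 6 lower. Igfbp2, which the rule used, is among the 3. Igfbp6 averaged 196 CPM in members against 9.96 CPM, whereas Igfbp5 averaged 54.3 CPM against 1254 CPM. Among 25 known YAP and TEAD targets, 2 were higher and 2 lower, with a median log2 ratio of 0.17. Ankrd1, which the rule used, averaged 664 CPM against 2.47 CPM, while Ctgf, another target, averaged 541 CPM against 451 CPM.

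Genes tied to activation of parietal cells and to epithelial injury were also compared. Of 15 activation genes 5 were at least 4-fold higher and 2 lower, and of 19 injury genes 6 were higher and 2 lower. Ackr3, a scavenging chemokine receptor, averaged 1325 CPM in members and 94.4 CPM in the others, and was higher in members in 12 of 12 mice. H2-K1, a class I antigen-presenting molecule, averaged 1467 CPM against 284 CPM and was also higher in all 12. None of 19 oxidative phosphorylation genes differed 4-fold in either direction.

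The members differed among themselves along Wt1 and Spp1, which encodes osteopontin, a secreted phosphoprotein of injured tubules. Wt1 was under 100 CPM in 17 members, from 100 to under 1000 CPM in 23 and at or above 1000 CPM in 13, limits that were set after the values were seen. Median Spp1 was 35347, 9671 and 121 CPM in these bands. The highest Spp1 level among the 13 wells with most Wt1 was 3166 CPM, below the median of either other band. Across the 53 wells Spearman's correlation of Wt1 with Spp1 was -0.63, and it was -0.49 over the 44 wells that held fewer than 5 of 6 podocyte markers. The wells share mice, plates and a range of depths, and Wt1 had a Spearman correlation of 0.19 with the number of detected genes and 0.34 with reads.

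**Figure D2:**
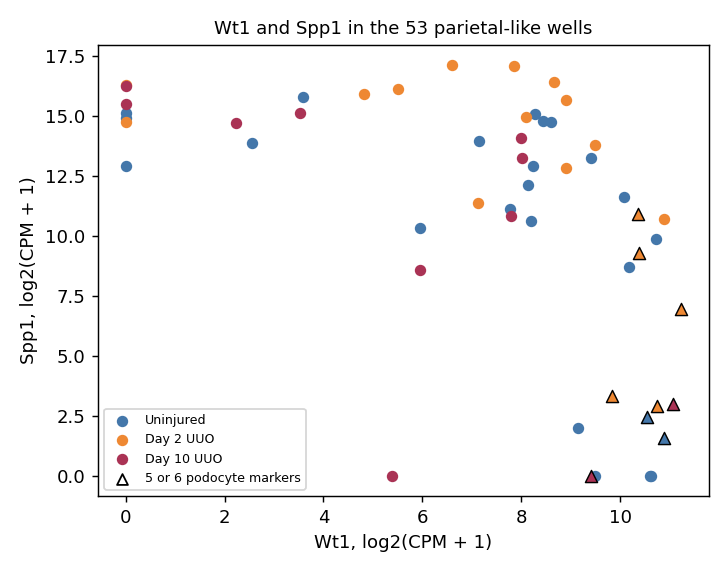
Wt1 against Spp1 in each of the 53 members, both as log2(CPM + 1), with colour for the condition and triangles for wells with 5 or 6 podocyte markers. Wells with Wt1 at 1000 CPM or more lie low on the Spp1 axis, at 3166 CPM or less.

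Other genes followed one end or the other. Median Clic5, a chloride channel protein of podocyte foot processes, was 0, 91.5 and 1238 CPM from the lowest to the highest Wt1 band, and median Dkk3 was 356, 885 and 1740.1 CPM. Median Podxl, the sialomucin of podocytes, was 2.73, 3.14 and 1018 CPM. Median Ankrd1 ran the other way, at 689.9, 82.9 and 0 CPM, as did Cldn2 at 403, 267 and 0 CPM. The highest band includes wells with 5 or more podocyte markers. Spearman's correlation with Wt1 over all 53 members was 0.62 for Clic5, 0.51 for Dkk3, 0.55 for Podxl and -0.52 for Ankrd1. Over the 44 members with under 5 podocyte markers it was 0.47, 0.35, 0.27 and -0.55. It was thus weaker there for Clic5, Dkk3 and Podxl, but not for Ankrd1.

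Ncam1 had medians of 940.1, 1211 and 1004 CPM in the 3 bands. Those of Cldn1, whose presence the rule favours, were 696, 1025 and 932 CPM. Each band drew on several mice (10, 9 and 8), and on each condition: the lowest held 6 healthy, 5 day 2 and 6 day 10 wells, and the highest 7, 5 and 1. Spp1 also went with Cd24a, a surface glycoprotein of renal progenitors, at a Spearman correlation of 0.78 over the 53 wells, and with Clu, the chaperone clusterin, at 0.69.

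At the podocyte end, 9 members held at least 5 of 6 podocyte markers at 20 CPM or more. Whether these wells held 1 cell or more was not tested. They came from 1 healthy mouse (2 wells), 3 day 2 mice (5 wells) and 2 day 10 mice (2 wells), and had a median of 4452 detected genes against 3830.5 in the other 44. Nephrin (Nphs1), a protein of the slit diaphragm and 1 of the 6 markers, ranged from 3.47 to 1253 CPM in these 9 wells. It averaged 146 CPM over all members, most of which lacked these markers. The average was 1382 CPM in the podocyte-marker wells outside the members, which the same 6 markers picked out.

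The share of the gate that these wells took was compared between conditions over mice. In healthy mice 1 to 4 they were 5.83%, 3.28%, 11.5% and 6.56% of kept mesenchyme gate wells. At day 2 of UUO the shares were 0.901%, 4.69%, 7.81% and 7.09%, and at day 10 they were 3.17%, 3.12%, 4.92% and 1.60%. The ranges of all 3 conditions overlapped, and the widest exact 95% interval of a single mouse ran from 4.74% to 22.2%, which covers counting error only.

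Means were 6.79% ± 3.43 in healthy mice, 5.12% ± 3.11 at day 2 and 3.20% ± 1.36 at day 10 (SD, n = 4 each). The day 10 mean was 3.58 percentage points under the healthy mean, which did not pass a two-sided exact permutation test (p = 0.0571, adjusted p = 0.171 over 3 comparisons with Benjamini-Hochberg). The exact permutation p was 0.543 for day 2 against healthy and 0.343 for day 10 against day 2, where 4 mice against 4 allow no p under 0.0286. With at least 4 of the 7 genes required, the difference of day 10 minus healthy was -4.59 points (exact permutation p = 0.0286, before adjustment). With plates as units it was -3.64 points (exact permutation p = 0.0216, before adjustment), although 2 plates can share a mouse. These are shares of wells passing a gate whose markers are not given here, and not shares of kidney cells.

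**Figure D3:**
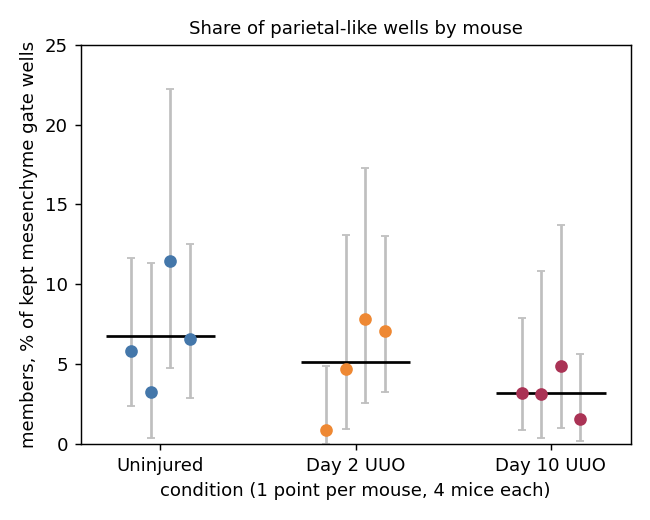
Members as a percent of kept mesenchyme gate wells in each of 12 mice, by condition, with exact 95% intervals and a line at the mean of 4 mice. The means step from 6.79% through 5.12% to 3.20% while the points of the conditions overlap.

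Although few, these wells carried much of the Spp1 of the gate before late injury. In healthy kidneys the 24 members were 6.59% of kept wells and held 92.1% of all Spp1 reads in the gate. At day 2 the 18 members held 71.5%, and at day 10 the 11 members held 5.79%. Per mouse, mean Spp1 in members was 13713, 779, 16263 and 9173 CPM in healthy mice 1 to 4, 6.59, 50783, 35417 and 43605 CPM at day 2, and 9205, 23159, 27007 and 26587 CPM at day 10. Day 2 mice 2 to 4 were above every healthy mouse, while day 2 mouse 1, whose only member held 6 podocyte markers, was below them all. In the other gate wells the mean over mice was 73.7 CPM in healthy kidneys, 774 CPM at day 2 and 9259 CPM at day 10. The median of those wells was 0, 102 and 9.26 CPM, so the day 10 mean came from a minority of them. Over all conditions, 97 of the 1053 other wells held Spp1 at 1000 CPM or more.

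Changes with obstruction were tested on counts summed over members of a mouse where there were at least 3, which gave 3 healthy, 3 day 2 and 2 day 10 mice with 3 to 9 cells each. With edgeR's quasi-likelihood test and Benjamini-Hochberg adjustment, 0 of 10981 genes passed in any of the 3 comparisons (0% each), and 160, 460 and 334 had an unadjusted p under 0.05 for day 2 against healthy, day 10 against healthy and day 10 against day 2. DESeq2 called 81 (0.738%), 440 (4.01%) and 240 (2.19%) on the same sums, and limma on mean CPM called 0 in each. None of the gene lists had a member past the edgeR threshold. The comparisons that follow therefore did not pass, and levels are given per mouse. These mouse means include mice too small for the tests. Day 2 mouse 1 had 1 member, and healthy mouse 2 and day 10 mice 2 and 4 had 2 each. Over 11283 genes, mouse means did not overlap for 0.736% with day 2 above healthy, 1.15% with healthy above day 2, 1.18% with day 10 above healthy, 1.17% with day 10 above day 2 and 0.718% with day 2 above day 10.

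Gstm1, a glutathione transferase of detoxification, was detected in all 53 members. Mean Gstm1 was 3624, 3392, 5843 and 2708 CPM in healthy mice 1 to 4, 418, 1154, 1719.7 and 1388 CPM at day 2, and 916, 1315, 761 and 1506 CPM at day 10. All 4 healthy mice were above all 8 obstructed ones, a pattern shown by 31 of 11283 genes (0.275%). Mice with only 1 or 2 members are among them, here and for the genes below. By edgeR's quasi-likelihood test the log2 change was -1.5 ± 0.45 (SE) at day 2, with an adjusted p of 1, and -2.13 ± 0.45 at day 10, with an adjusted p of 0.653. Gstm1 and, further on, C3 were chosen for description after their values were seen, and Gstm1 can share reads with its close paralogs such as Gstm2.

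Gstm2 averaged 1648, 875, 2502 and 1206 CPM in healthy members, 19.8, 724, 996 and 562 CPM at day 2, and 288, 421, 89.0 and 1043 CPM at day 10. Healthy and obstructed mice overlapped. Its edgeR log2 change at day 10 was -3.53 ± 0.67, with an adjusted p of 0.382. It passed with DESeq2, without the filter on low counts and with sums per plate.

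Fmod, the collagen-binding proteoglycan fibromodulin, had reads in 15 of 24 healthy members, 2 of 18 at day 2 and 0 of 11 at day 10. Its mean was 703, 593, 298 and 242 CPM in healthy mice, 1.3 CPM in day 2 mouse 3, and 0 CPM in the other 3 mice at day 2 and all 4 at day 10. Every healthy mouse thus stood above every obstructed mouse, as for the same 0.275% of genes as above, and no fold is given because most obstructed levels were 0. The adjusted p at day 10 was 0.382 by edgeR's quasi-likelihood test. It passed in edgeR without the filter on low counts (adjusted p = 0.00832), with sums per plate (0.0202, and 0.000666 at day 2) and without podocyte-marker members (0.0458).

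Anxa2, the membrane-binding annexin A2, showed the opposite order. It averaged 462, 0, 388 and 231 CPM in healthy members, 1352, 1082, 1717 and 1273 CPM at day 2, and 1235, 1223, 657 and 1203 CPM at day 10. All 8 obstructed mice were above the 4 healthy ones, as for 9 of 11283 genes (0.0798%). The edgeR log2 change was 2.32 ± 0.57 at day 2 and 1.28 ± 0.55 at day 10, each with an adjusted p of 1.

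**Figure D4:**
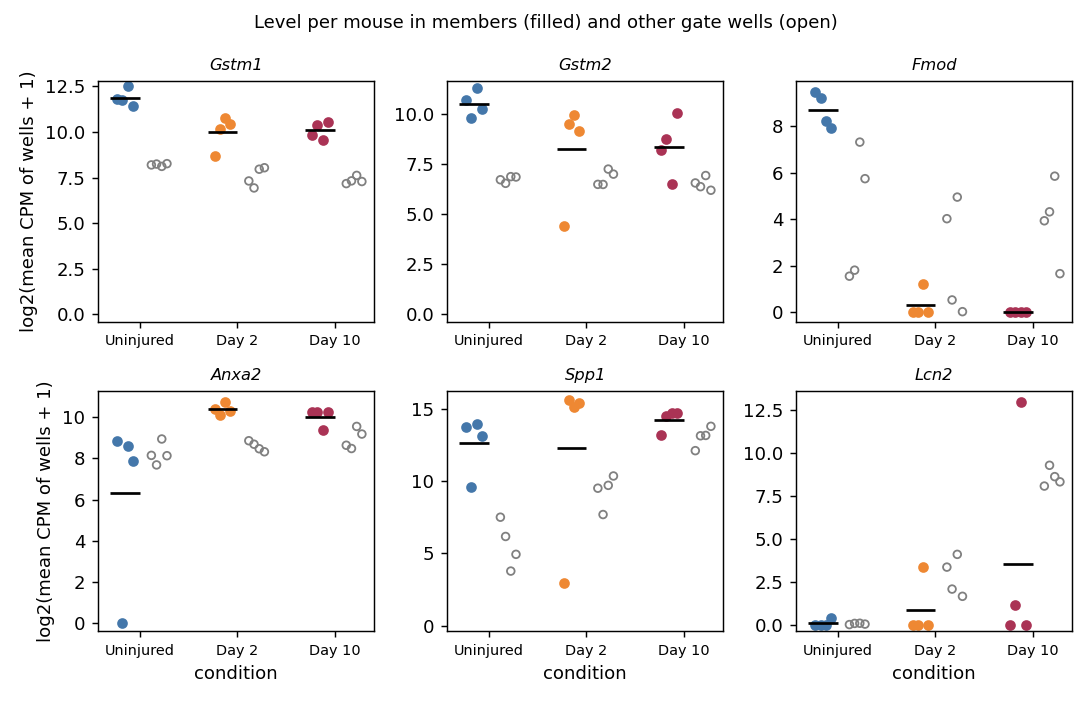
Mean CPM per mouse of Gstm1, Gstm2, Fmod, Anxa2, Spp1 and Lcn2 in members (filled) and other mesenchyme gate wells (open) by condition, as log2(CPM + 1), with a line at the mean of the log values of members. Among members, Gstm1 and Fmod are highest in the 4 healthy mice and Anxa2 is lowest there, and Lcn2 reaches 8011 CPM in 1 day 10 mouse and at most 9.12 CPM in the others.

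At day 2, the genes of smallest p included Adamts1, a secreted protease, and Spp1. Adamts1 averaged 169, 7458, 896 and 469.7 CPM in healthy members and 19.8, 2643, 2903 and 3760.2 CPM at day 2, so that the groups overlapped. The edgeR log2 change was 2.67 ± 0.62 for Adamts1 and 1.5 ± 0.36 for Spp1, each with an adjusted p of 1. Spp1 passed in edgeR without the filter on low counts (1.51, adjusted p = 0.00844) and with sums per plate (1.90, adjusted p = 1.05e-12), where 2 sums can come from 1 mouse. Adamts1 passed with sums per plate (2.98, adjusted p = 8.24e-05 in edgeR), as did Spp1 at day 10 (0.95, adjusted p = 0.0202). None of these fits holds day 2 mouse 1. C3 averaged 1660.0, 1119, 1151 and 839 CPM in healthy members, 0, 649.7, 4172 and 2722 CPM at day 2, and 2659.5, 2159, 302 and 1648 CPM at day 10, again with overlap.

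At day 10, the gene of smallest p was Lcn2, the iron-trapping lipocalin released by injured tubule. Mean Lcn2 in members was 0, 1.23, 8011 and 0 CPM in day 10 mice 1 to 4, and at most 0.307 CPM in a healthy and 9.12 CPM in a day 2 mouse. The value of mouse 3 came from 1 well at 24032 CPM, which also held 4625 CPM of Umod, a marker of the loop of Henle, and 1432 CPM of Krt8. The adjusted p of 0.382 by edgeR's quasi-likelihood test rests on that well.

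Rule genes were present in every condition, which the rule itself favours. Mean Cldn1 ran from 631 to 1191 CPM over healthy mice, 582 to 1371 CPM at day 2 and 232 to 1544 CPM at day 10. Pcp4 averaged 1159.8, 801, 1588 and 414 CPM in healthy members and 229, 85.3, 171 and 29.7 CPM at day 10, without overlap, as for 159 of 11283 genes (1.41%) that were higher in every healthy mouse. No test is given for these genes, since their levels chose the members.

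Whether members changed differently from the rest of the gate was tested as an interaction in one edgeR fit. For day 2 against healthy 0 of 16201 genes passed (1174 at an unadjusted p under 0.05, and 3 by limma voom). For day 10 against healthy 35 genes passed (0.216%), of which 10 were higher and 25 lower in members relative to the others, and 3 passed by limma voom. For day 10 against day 2 there were 6 (0.037%), and 0 by limma voom (1144 at an unadjusted p under 0.05). In 18 of the 35 and 4 of the 6, every member sum of a condition was 0, and leaving out mouse number 4 left 0 calls in both. Sums of 3 to 9 cells and of many more cells shared 1 estimate of spread, and the block was the number, although member and other sums come from the same mice. With each mouse as a block, a fit chosen after seeing the data, 2, 5 and 7 genes passed for day 2 against healthy, day 10 against healthy and day 10 against day 2, of which 0, 2 and 2 were among the calls above.

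Gstm2 was among the 35, with a relative log2 change of -3.05 ± 0.56 and an adjusted p of 0.0414 by edgeR's quasi-likelihood test, against 0.245 by limma voom and 0.414 in edgeR with each mouse as a block. S1pr3, a receptor for sphingosine 1-phosphate, had a relative log2 change of 6.52 ± 0.81 (adjusted p = 0.0043 by edgeR, 0.944 by limma voom, 1.96e-07 by edgeR with each mouse as a block). S1pr3 averaged 146, 0, 151 and 0 CPM in day 10 members of mice 1 to 4, of which the fit held mice 1 and 3, and at most 3.93 CPM in healthy members, while the other gate wells averaged 1794 CPM in healthy and 1291 CPM in day 10 mice. The mice with and without reads thus split within day 10. Reads were found in 3 of 11 day 10 members (median 0 CPM), and 1 well at 583.5 CPM held 56.2% of their summed CPM. For Spp1 the relative log2 change was -6.10 ± 1.27, with an adjusted p of 0.0526 by edgeR. It was -6.98 ± 0.47 with each mouse as a block (adjusted p = 9.35e-24), and the adjusted p was 0.714 by limma voom.

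Detected genes and RNA content were compared within 8 mice with at least 3 members. Members held 4016 ± 612 detected genes per well and the other gate wells 3462 ± 211 (mean and SD of medians per mouse, n = 8), higher in members in 7 of 8 mice (two-sided exact paired permutation p = 0.0156, where the smallest possible is 0.00781). The rule asks for detected genes, so wells with few genes could less easily become members. The difference did not pass when stricter limits on genes and reads per well were set (526 genes, exact permutation p = 0.109). Gene reads per read of the ERCC spike-in, a measure of RNA per well, were 385 ± 108 and 380.5 ± 78.6, higher in members in 4 of 8 mice (exact permutation p = 0.906).

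**Figure D5:**
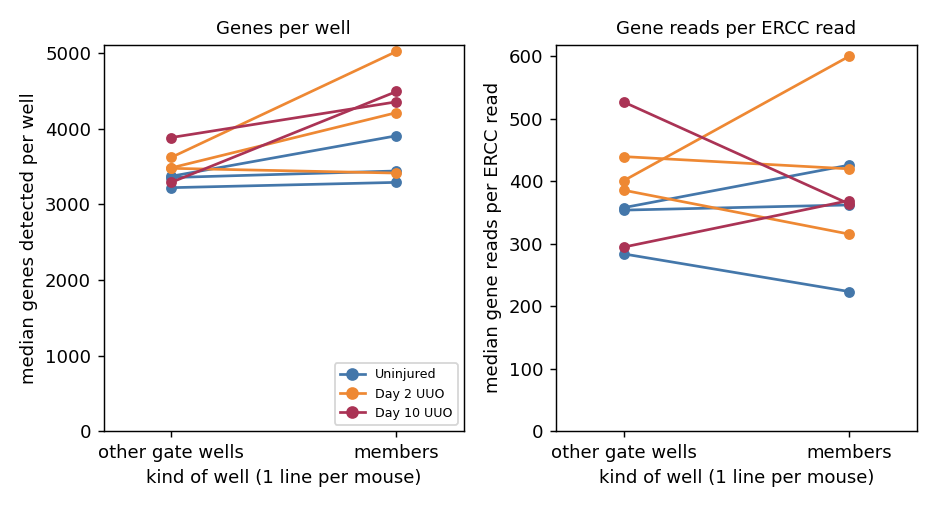
Median detected genes per well and gene reads per ERCC read in members and other mesenchyme gate wells of the same mouse, joined by lines for 8 mice. Detected genes are higher in members in 7 of 8 mice and reads per spike-in read in 4 of 8.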

How the data were processed

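Raw read counts per gene and well were deposited by the authors for 6 plates, with counts of ERCC spike-in RNAs and a layout of labels. STAR and mm10 are named per the submitters' processing notes; the counting tool, annotation and strandedness are not given in the sources used here. Entries of 1 symbol were added. Wells with at least 1000 genes and 20000 gene reads were kept, and doublets were not called. The members and gene lists were chosen with earlier results of these data known. Ratios of mean CPM were described for genes at 5 CPM or more in either kind of well. Condition tests used member counts summed per mouse (at least 3 cells), filterByExpr, TMM, the number as a block and edgeR 4.0.16 quasi-likelihood tests (R 4.3.3), adjusted over all genes with a threshold of 0.05. That fit had 2 residual degrees of freedom. The number is assumed to mark the mouse, and it shares plates across conditions (deviations of same-number sums correlated at -0.0185 to 0.0314). The scripts were tested on simulated data. No 2 kept wells held identical counts.

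Named genes were the rule genes, Col1a1, Pdgfrb, Acta2 and Pecam1, up to 20 genes with the highest and 10 with the lowest ratio to the other gate wells, up to 10 genes in each direction per comparison or the 5 of smallest p where fewer than 5 passed, and 2 to 5 genes per list. Gm-number, Rik, -ps and ribosomal protein genes were passed over, and some genes that meet the rule are not reported here. Other genes were picked after their values were seen, among them Gstm1, C3 and Csf1r. Alternatives were DESeq2 1.42.0, limma 3.58.1, no filter, no block, sums per plate, stricter membership and leaving out each number. Alternatives added after seeing the data were a minimum of 1 cell, leaving out podocyte-marker members, limma voom and each mouse as a block. Gene reads carry no molecular identifiers, so intervals and the limit of 3 counts behind a 0 cover counting error only.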

Additional observations from a re-analysis of the deposited data

Results flagged for a closer look

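In 6 of 27 groups of 4 mice, the mean of 1 mouse stood apart from the other 3 by a gap that, divided by the group's range, exceeded Dixon's 95% critical value, which chance does in about 1 in 20 groups. Anxa2 in day 10 members had a ratio of gap to range of 0.946, with mouse 3 low at 657 CPM. Fmod at day 2 had a ratio of 1, since mouse 3 alone had reads, at a mean of 1.3 CPM. Lcn2 had a ratio of 1 in healthy mice and of 1 at day 2, where 1 mouse held all reads, and of 0.9998 at day 10, where mouse 3 averaged 8011 CPM through 1 well. Adamts1 in healthy members had a ratio of 0.900, with mouse 2, represented by 2 wells, at 7458 CPM.

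The change with obstruction differed between members and the other gate wells for 35 genes at day 10 against healthy and for 6 at day 10 against day 2, by the interaction term of the edgeR fit. Members of a condition had no reads in 18 and 4 of these genes. With each mouse as a block the counts were 5 and 7, of which 2 and 2 were the same genes.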

How the results depend on the processing

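Members per mouse were few, which limits every condition test. For day 2 against healthy, day 10 against healthy and day 10 against day 2, DESeq2 called 81, 440 and 240 genes, edgeR without the low-count filter 1, 5 and 1, and sums per plate (more than 1 per mouse) 3, 7 and 5. Without podocyte-marker members the last 2 comparisons gave 5 and 1. Leaving out each mouse number gave 0 to 0, 0 to 1 and 0 to 1 calls, the 1 being Lcn2 without number 4; without number 3 no fit was possible. The fit with no replicate block called 0 in each (354, 576 and 483 at an unadjusted p under 0.05). The numbers share only plates. Interaction calls without the replicate block were 4, 204 and 88, by limma voom 3, 3 and 0, with each mouse as a block 2, 5 and 7, and 17 without the filter at day 10 against healthy. Leaving out each number gave 0 to 188 for that comparison and 0 to 154 for day 10 against day 2. The log2 change of C3 at day 10 (-0.44) turned to 0.22 without the block and 0.62 with at least 1 cell per sum. That of Lcn2 at day 2 (2.88) turned to -2.86 with DESeq2 and -0.13 with limma. The cause was not tested. The excess of genes per well was 526 in deeper wells (exact permutation p = 0.109), 530.9 with 4 rule genes (p = 0.0625, the smallest its 5 mice allow) and 416 to 642 leaving out each number, and the difference in reads per ERCC read ran from -38.4 to 42.2. The share at day 10 stayed under the healthy share, with differences of -4.72 to -2.59 points leaving out each number. A minimum of 10 cells and leaving out possible mixed wells (15 members remain) could not be run as condition tests, and a minimum of 5 cells, 4 rule genes, 50 CPM and deeper wells allowed only the day 2 comparison, with 0 calls. Among single-gene values under these alternatives (those added later not counted), 186 kept their side of the threshold and direction, 23 newly passed and 3 reversed.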

Other observations

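A few members carried cell cycle transcripts. At least 3 of Top2a, Mki67, Ccna2, Cenpf, Cdk1 and Ccnb1, a set picked after the values were seen, reached 20 CPM in 3 of 53 members (5.66%, exact 95% interval 1.18% to 15.7%), 1 in each condition. The other kept wells of the gate held 6 such wells of 1053 (0.570%, 0.209% to 1.24%). Wells share mice, so these intervals cover counting error only and no difference is read from them. Of 25 cell cycle genes, 11 were at least 4-fold higher in members and 1 lower (10.3% and 9.42% over all genes). They summed to 1228 CPM in members, 1198 CPM in the other gate wells and 3488 CPM in the podocyte-marker wells. Another healthy well, from mouse 4, held 11027 CPM of Slc34a1 and 11625 CPM of Kap, both markers of proximal tubule, beside its rule genes.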
